A study of Arabidopsis thaliana with 6 samples.

Results

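The superoxide dismutase and copper economy genes of Arabidopsis thaliana were followed in poly(A) RNA of shoots, in 3 libraries of the wild type Col-0 and 3 libraries of the myc2 mutant. The group holds 10 of the 28775 genes in the count files: CSD1 (AT1G08830), CSD2 (AT2G28190), CSD3 (AT5G18100), FSD1 (AT4G25100), FSD2 (AT5G51100), FSD3 (AT5G23310), MSD1 (AT3G10920), CCS (AT1G12520), COPT2 (AT3G46900) and SPL7 (AT5G18830). It was picked on measured values, because CSD2 is an abundant gene whose level was higher in myc2. For that reason the difference of CSD2 between the genotypes is given as a description with no test, and the other 9 genes have the p-values of the fit across all genes. The 9 were listed with results of this contrast known.

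All plants were grown at 22 °C in days of 16 h light and 8 h dark, and Col-0 is the Columbia accession. The aerial parts of seedlings 2 weeks old were frozen in liquid nitrogen, and the labels name no treatment. MYC2 is a bHLH transcription factor that acts in jasmonate responses, and the comparison measures the transcripts that change in its mutant. The sources used here do not name the mutant allele. The study calls its replicates biological, without saying how the plants were divided among them, and a p-value here reflects the spread between these libraries.

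Superoxide dismutases convert superoxide into hydrogen peroxide and oxygen, and plants have them in copper/zinc (CSD), iron (FSD) and manganese (MSD) forms in different compartments. When copper is scarce, the transcription factor SPL7 is known to raise FSD1 and the microRNA miR398, which directs cleavage of the transcripts of CSD1, CSD2 and their copper chaperone CCS. This exchange of copper enzymes for an iron enzyme is called copper economy, and it leaves copper for plastocyanin in photosynthesis. Copper supply, enzyme activity and mature microRNAs were not measured here.

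The sequences below show where miR398 can pair with the genes of the group, since CSD1, CSD2 and CCS are its known targets. The mature microRNAs were read from the RefSeq TAIR10.1 genome and annotation, 5′ to 3′, with the seed (bases 2 to 8) in capitals, and miR398b-3p and miR398c-3p are the same sequence. miR398a-3p lies at chr2:1041012-1041032, miR398b-3p at chr5:4691107-4691127 and miR398c-3p at chr5:4694778-4694798, all on the plus strand. They share 1 seed.
miR398a-3p: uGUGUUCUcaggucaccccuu
miR398b-3p and miR398c-3p: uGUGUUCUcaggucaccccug

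The best pairing site of miR398b-3p and miR398c-3p in each transcript was found with a cost of 1 for an unpaired base, 0.5 for a G:U pair and 1 for a single bulged base in the transcript. The bulge was allowed after an ungapped search had been seen. In the sites below, 5′ to 3′ as in the transcript, capitals mark bases in Watson-Crick pairs. The CSD1 site lies in the 5′ UTR across an intron, between chr1:2827177-2827685, the CSD2 site in the coding sequence at chr2:12015572-12015593, and the CCS site in the coding sequence at chr1:4267521-4267542 on the minus strand. COX5B-1, a subunit gene of the mitochondrial cytochrome c oxidase and a further known miR398 target outside the group, is shown beside them with its site in the 5′ UTR at chr3:5299204-5299225.
CSD1: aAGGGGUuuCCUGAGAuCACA
CSD2: ugcGGGUGACCUGgGaAACAuA
CCS: CAuuGGGaGACCUGgGAACACu
COX5B-1: aAGGuGUGACCUGAGAAuCACA

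The site cost was 4.0 in CSD1 and in CSD2, and 0.0726% of the 27556 genes searched had a site at least as good. It was 4.5 in CCS, reached by 0.218% of genes, and 3.0 in COX5B-1, reached by 0.0109%. The other 7 genes of the group had costs between 6.5 (FSD1 and SPL7) and 8.0 (COPT2), which 20.6% to 88.1% of all genes reached. For CSD2 this rests on the bulge. In the ungapped search its cost was 6.5, level with FSD1 and SPL7 and reached by 11.7% of 27558 genes, so that CSD2 then stood with the other members, while CSD1 kept 4.0 and both CCS and COX5B-1 had 5.5. With a G:U cost of 1 as well, CSD2 had 8.0, reached by 34% of genes. A match is a description and not a shown cleavage site.

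Promoters were searched for GTAC, the core of the motif that SPL7 is known to bind, which reads the same on both strands, in 250 bases before to 50 bases after the annotated start. At least 1 GTAC was in 39% of 27443 promoters, at least 2 in 9.76% and at least 3 in 1.99%. CSD1 held 2, CSD3, FSD1, CCS and COPT2 held 1 each, and CSD2, FSD2, FSD3, MSD1 and SPL7 held none in this window. MIR398C held 3, and so did YSL2, a metal-nicotianamine transporter gene that is described below. Of the other genes known to rise under low copper that are described with YSL2, CCH and ZIP2 held 4 each. COPT6, FRO4, FRO5 and CITF1 held none. The start of a microRNA gene is that of the annotated hairpin. For every other gene, FSD1 among them, it is the outermost start annotated, and a transcript of the gene can start further downstream. The stretches around the motifs upstream of the start, with GTAC in capitals and in the direction of the gene, are printed for the genes whose levels are set side by side below, with their TAIR10.1 positions.
CSD1 chr1:2827039-2827059, plus strand: tgctaatcacGTACGTACcta
CCS chr1:4269180-4269203, minus strand: tagtgatgatGTACaagataacaa
FSD1 chr4:12887143-12887166, minus strand: acagttttagGTACattgtagaaa
MIR398C chr5:4694459-4694570, plus strand: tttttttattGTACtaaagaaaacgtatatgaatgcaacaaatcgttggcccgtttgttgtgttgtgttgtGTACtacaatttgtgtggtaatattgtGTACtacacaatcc
YSL2 chr5:8323771-8323838, plus strand: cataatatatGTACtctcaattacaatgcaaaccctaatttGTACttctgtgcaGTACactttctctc

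**Figure D1:**
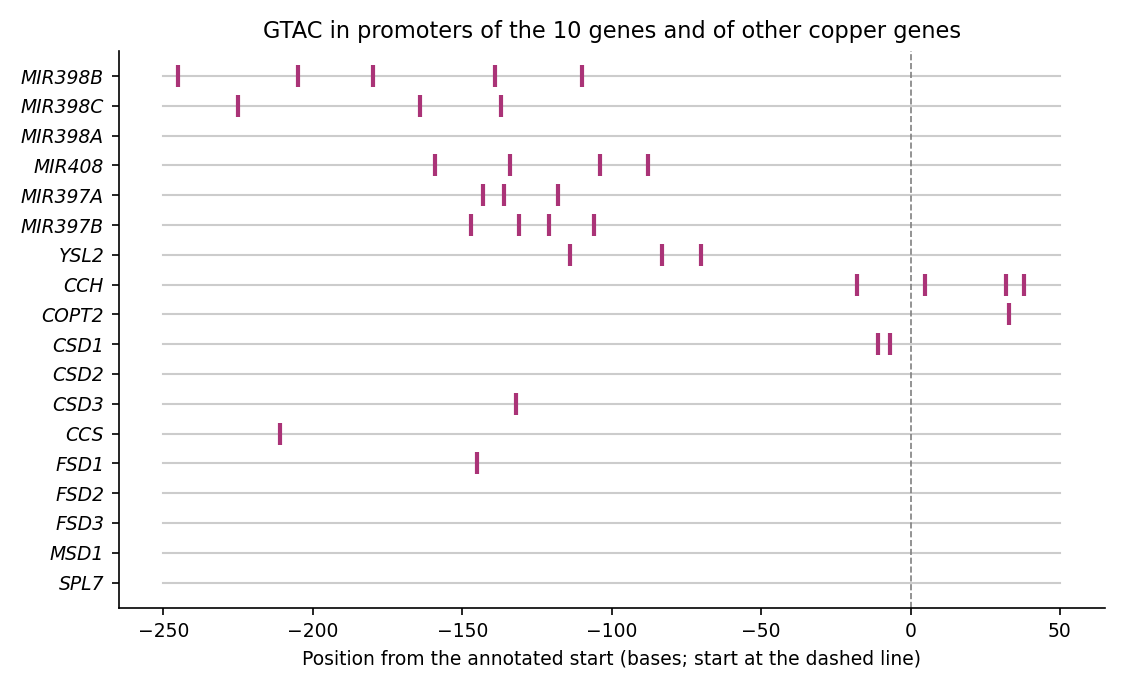
Positions of GTAC (purple marks) in the promoters of the 10 genes and of 8 other copper genes; the horizontal axis is the distance from the annotated start in bases and each grey line is 1 promoter. MIR398B held 5 marks, MIR408, MIR397B and CCH held 4 and MIR398A held none, against at most 2 in any of the 10 genes.

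The G-box CACGTG, a motif that MYC2 is known to bind, was in 7.68% of promoters and in none of the 10. This says only that these letters are not in the window searched.

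Counts added up to 21165967 to 30604815 per library, and 18961 genes had enough reads to be tested, among them all 10. MYC2 itself had 4808, 4085 and 5087 counts in Col-0 and 1822, 2007 and 1864 in myc2, and its level in myc2 was 37.0% of that in Col-0 (log2 fold change -1.43 ± 0.07, SE, edgeR adjusted p = 2.94e-08). A gene on the opposite strand, AT1G32630, overlaps MYC2 over 3241 bases, and with no strand setting stated the reads of the pair cannot be told apart. The file names in the headers begin with 1 prefix for the first pair of Col-0 replicates (1 and 2) and another for Col-0 replicate 3. The 3 myc2 libraries have a further one. The prefix is read here as the sequencing run, so run and genotype cannot be told apart. For the 10 genes the difference against each Col-0 run is plotted below, and for other genes described it is given where a run changes the call. The 5 leaf markers summed to 45594 to 53172 CPM (read counts scaled to library size) in Col-0 and to 42915 to 44487 CPM in myc2, without overlap. Of the 5, 2 were called lower in myc2, RBCS1A and CA1 (edgeR adjusted p = 0.029 and 0.0247), where 18.7% of all genes tested were. Col-0 replicate 3 lay above the other Col-0 libraries for all 5, by fitted log2 differences of 0.07 (RCA) to 0.32 (CAB1). Against replicate 3 the log2 fold changes of myc2 ran from -0.40 (RBCS1A) to -0.18 (RCA). CAB1 was at -0.19 there and at 0.14 against replicates 1 and 2. Of 9 root markers, 4 were tested and all 4 were called higher in myc2 by edgeR, where 17.6% of all genes tested were. With DESeq2, 3 of the 4 were called higher. The sum over the 9 was 280 to 300 CPM in Col-0 and 526 to 540 CPM in myc2. Most of it came from PYK10, at 223 to 251 CPM in Col-0 and 459 to 474 CPM in myc2. The other 3 called were SCR and SHR, both with a log2 fold change of 0.35, and PHT1;1, which had 6 counts in Col-0 and 51 in myc2 (edgeR adjusted p = 0.00129). PHT1;1 had enough reads to be tested only through its myc2 libraries, where it was higher, so its place among the 4 is not independent of its direction. Against Col-0 replicate 3 the calls of SCR and SHR did not hold, at log2 fold changes of 0.17 and 0.30. Against replicates 1 and 2 these were 0.46 and 0.39. Of the 5 root markers with too few reads to be tested, NRT2.1 had 5 counts in Col-0 and 46 in myc2, CASP1 had 22 and 27, COBL9 had 1 and 3, EXP7 had 1 and 0 and IRT1 had 0 reads in all 6 libraries. The part of the leaf and root markers in the results below was not tested. The 7 flower and seed markers summed to at most 3.08 CPM.

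Levels are CPM with library sizes adjusted by TMM (the trimmed mean of M-values). Errors of levels are SD over n = 3 libraries a genotype, and a gene is called at an edgeR adjusted p under 0.05 over all genes tested. Of the 9 genes tested beside CSD2, 2 were higher in myc2 (CSD1 and CCS), where 17.6% of all genes tested were called higher. FSD1, FSD2 and FSD3, 3 of the 9, were lower in myc2, where 18.7% of all genes were called lower. The other 4, CSD3, MSD1, COPT2 and SPL7, did not pass. The median log2 fold change of the 10 genes was -0.12, beside 0.01 over all genes. It includes CSD2, which was chosen for being higher in myc2, and is a description. In whole shoots, fewer cells of a type and less RNA per cell cannot be told apart.

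**Figure D2:**
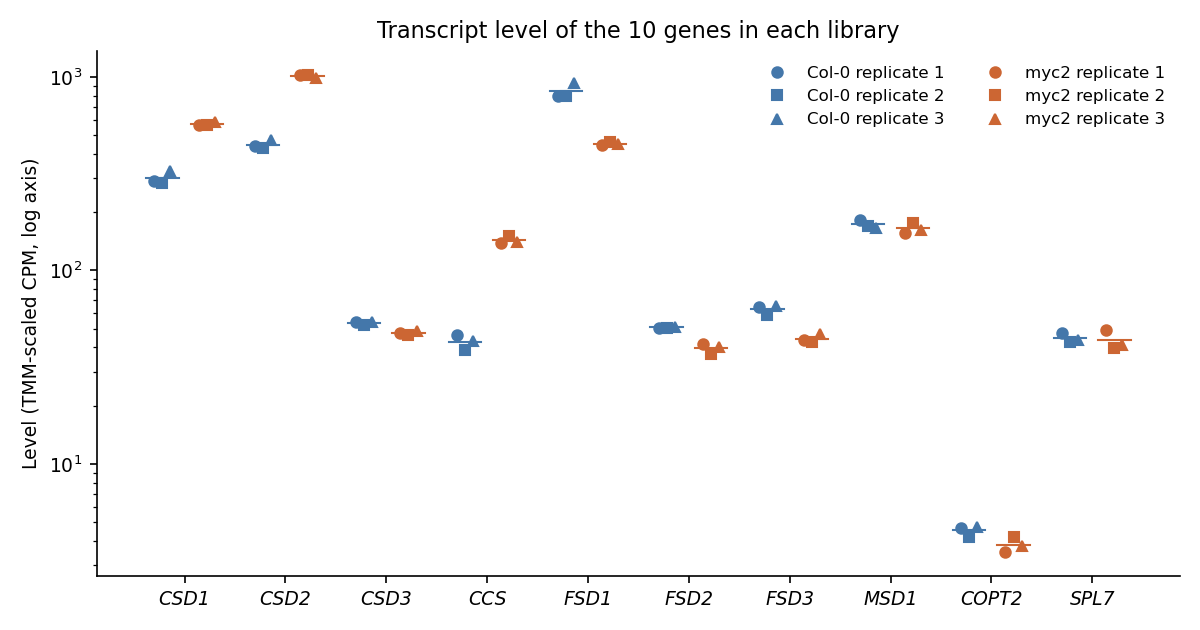
Level of each of the 10 genes in each library, in TMM-scaled CPM on a log axis; blue is Col-0 and orange is myc2, marker shapes give the replicate number and short lines the genotype means. CSD1, CSD2 and CCS lie higher in all 3 myc2 libraries and the 3 FSD genes lower, while the genotypes overlap for MSD1 and SPL7.

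CSD2 encodes the copper/zinc superoxide dismutase of the chloroplast and lies at chr2:12014412-12016569. Its level was 437, 427 and 474 CPM in Col-0 replicates 1 to 3 and 1026, 1027 and 987 CPM in myc2 replicates 1 to 3. The lowest myc2 library lay above the highest Col-0 library, in a gene that was chosen for being higher in myc2. The fitted difference was 2.27-fold (log2 1.18 ± 0.06, SE), given with no test. On the log2 scale it was 1.23 when only Col-0 replicates 1 and 2 served as the control and 1.10 when only Col-0 replicate 3 did.

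CSD1, the cytosolic copper/zinc superoxide dismutase gene at chr1:2827060-2829315, was higher in myc2. It reached 289, 282 and 326 CPM in Col-0 and 564, 566 and 585 CPM in myc2. The genotypes did not overlap, and Col-0 replicate 3 was the highest of the Col-0 libraries. The mean level was 299 ± 23.6 CPM in Col-0 and 572 ± 11.5 CPM in myc2, and the log2 fold change was 0.94 ± 0.07 (SE, edgeR adjusted p = 5.5e-07). The gene emb2411 overlaps CSD1 on the opposite strand over 211 bases.

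CCS, the copper chaperone that loads copper into the CSD enzymes, at chr1:4267074-4268982, had the largest difference of the 10 genes. Its level was 46.2, 38.8 and 43.4 CPM in Col-0 and 138, 151 and 141 CPM in myc2. Every myc2 library was above every Col-0 library. CCS was 3.34-fold higher in myc2 (log2 1.74 ± 0.08, SE, edgeR adjusted p = 1.16e-08), and 124 of the 18961 genes tested (0.654%) had a fitted increase at least as large. CSD1 was among the 3.3% of genes with at least its own increase.

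CSD3 encodes the peroxisomal copper/zinc form and lies at chr5:5987187-5988885. It stood at 54.0, 52.0 and 54.2 CPM in Col-0 and at 47.8, 46.7 and 48.5 CPM in myc2. The libraries of the genotypes did not overlap, but the difference did not pass the test (log2 fold change -0.16 ± 0.06, SE, edgeR adjusted p = 0.0645). This depended on the libraries and the model. Without Col-0 replicate 3 the adjusted p was 0.0445 at a log2 fold change of -0.15. With all 6 libraries and each Col-0 run as a group of its own it was 0.0434 against replicates 1 and 2 and 0.0439 against replicate 3, and over all alternatives the adjusted p ranged from 0.0434 to 0.383. CSD3 shares 142 bases with NCBP on the opposite strand.

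FSD1, an iron superoxide dismutase of the chloroplast and cytosol, at chr4:12884300-12887011, moved opposite to CSD1 and CCS. Its level was 801, 796 and 927 CPM in Col-0 and 443, 463 and 452 CPM in myc2. All 3 Col-0 libraries were above all 3 myc2 libraries, and Col-0 replicate 3 was again the highest. FSD1 in myc2 was at 53.8% of its Col-0 level (log2 fold change -0.89 ± 0.07, SE, edgeR adjusted p = 1.13e-06), and 4.71% of all genes tested had a fitted decrease at least as large.

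FSD2 and FSD3 encode the iron superoxide dismutases that work together in the chloroplast nucleoids, where plastid DNA is transcribed. FSD2, at chr5:20773235-20775739, was at 50.7, 50.7 and 50.9 CPM in Col-0 and at 41.5, 37.1 and 40.4 CPM in myc2. FSD3, at chr5:7850444-7852534, was at 65.0, 58.5 and 65.4 CPM in Col-0 and at 43.7, 42.5 and 47.0 CPM in myc2. Neither gene had overlapping genotypes, and the 3 Col-0 values of FSD2 differed by less than 1 CPM. Both fell in myc2, FSD2 by 0.36 ± 0.07 on the log2 scale (SE, edgeR adjusted p = 0.00198) and FSD3 by 0.50 ± 0.07 (SE, edgeR adjusted p = 0.00025).

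MSD1, the manganese superoxide dismutase of mitochondria, at chr3:3417940-3419892, was at 182, 170 and 166 CPM in Col-0 and at 156, 176 and 162 CPM in myc2. The genotypes overlapped, and the log2 fold change was -0.07, with a 95% interval from -0.21 to 0.08 (edgeR adjusted p = 0.458). MSD2, a related gene, had 0 reads in all 6 libraries, which allows up to 3 counts or 0.103 to 0.145 CPM a library. CPN20, a chloroplast co-chaperonin known to activate FSD1, was at 886 ± 55.2 CPM in Col-0 and 773 ± 3.55 CPM in myc2, a log2 fold change of -0.20 (edgeR adjusted p = 0.0221). That call was lost in 7 of 17 alternatives, where the adjusted p reached 0.184, among them that against Col-0 replicate 3 (log2 fold change -0.09, edgeR adjusted p = 0.126).

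SPL7, the transcription factor of the copper response, at chr5:6275895-6280681, showed no difference past the threshold. Its level was 47.5, 42.7 and 43.9 CPM in Col-0 and 49.4, 39.8 and 41.3 CPM in myc2. The genotypes overlapped, with the highest and the lowest value both in myc2. The log2 fold change was -0.04, with a 95% interval from -0.24 to 0.16 (edgeR adjusted p = 0.758), which leaves out changes of the size seen in CSD1, FSD1 or CCS.

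COPT2, a copper importer of the plasma membrane that is known to rise when copper is low, at chr3:17268700-17269510, had the fewest reads of the 10 genes. It had 110, 87 and 138 counts in Col-0 and 93, 114 and 99 counts in myc2. Scaled to library size this was 4.69, 4.19 and 4.75 CPM in Col-0 and 3.52, 4.17 and 3.77 CPM in myc2. The genotypes did not overlap but touched, at 4.19 CPM in Col-0 and 4.17 CPM in myc2. The log2 fold change was -0.25, with a 95% interval from -0.55 to 0.05 (edgeR adjusted p = 0.17), which includes 0.

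**Figure D3:**
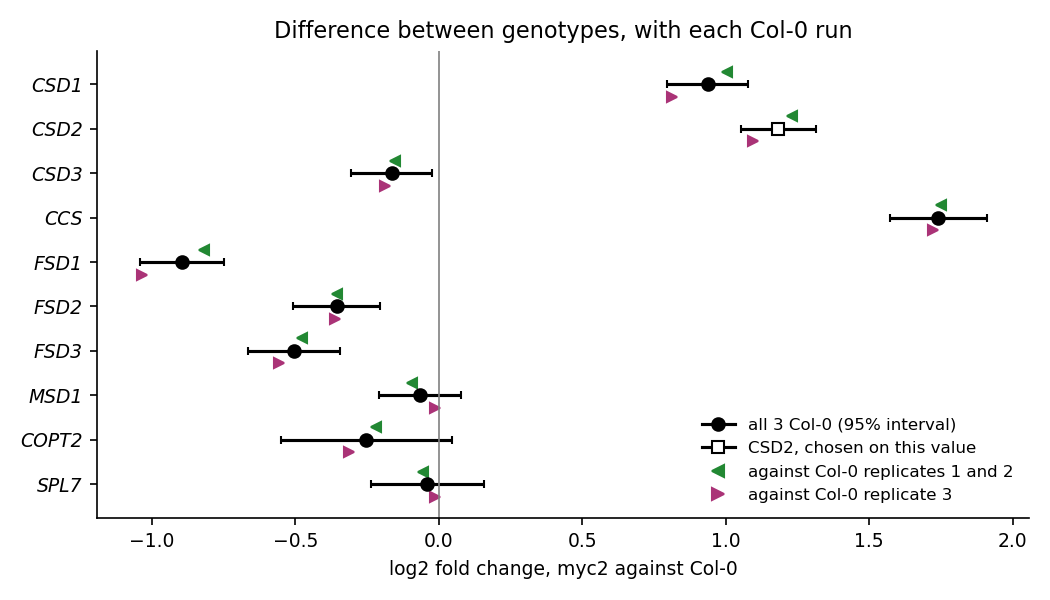
log2 fold change of myc2 against Col-0 for the 10 genes, with bars for the 95% interval of the fit on all 6 libraries (black) and points for the same difference against Col-0 replicates 1 and 2 (green) or Col-0 replicate 3 (purple); CSD2 is the open square. Against both runs CSD1, CSD2 and CCS lie above 0.8 and FSD1 below -0.8.

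The wild-type libraries of different runs show how far these genes vary where the genotype is the same. Between Col-0 replicate 3 and Col-0 replicates 1 and 2, 2 of the 10 genes were called, CSD1 and FSD1, where 15.6% of all genes tested were called. Both were higher in replicate 3, CSD1 by 0.19 ± 0.06 (SE, edgeR adjusted p = 0.0202) and FSD1 by 0.21 ± 0.05 (SE, edgeR adjusted p = 0.00611) on the log2 scale. The library that is alone in its run is assumed in this fit to vary like the others. For CCS the difference between the Col-0 runs was 0.03, with a 95% interval from -0.17 to 0.22 (edgeR adjusted p = 0.892). Against Col-0 replicate 3 alone, the fitted difference of myc2 was 0.81 for CSD1 (edgeR adjusted p = 2.2e-11), 1.72 for CCS (edgeR adjusted p = 1.13e-12) and -1.03 for FSD1 (edgeR adjusted p = 2.24e-14).

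Dividing by exon length allows the genes to be compared with each other, in CPM per kilobase of exon. In Col-0 the order of the levels was FSD1 at 542 ± 47.7, CSD2 at 424 ± 23.6, CSD1 at 342 ± 27.1, MSD1 at 160 ± 7.37, CSD3 at 71.2 ± 1.63 and FSD3 at 49.8 ± 3.06 CPM per kilobase. Lower down were FSD2 at 32.9 ± 0.07, CCS at 30.0 ± 2.65, SPL7 at 14.5 ± 0.81 and COPT2 at 7.15 ± 0.48 CPM per kilobase. In that order FSD2 and CCS were nearly level, with the highest CCS library at 32.4 and the lowest FSD2 library at 32.8 CPM per kilobase, and no other neighbours came as close. In myc2 CSD2 led at 962 ± 21.4, followed by CSD1 at 655 ± 13.1, FSD1 at 291 ± 6.36, MSD1 at 152 ± 9.58 and CCS at 100.4 ± 4.89 CPM per kilobase. CCS thus stood above CSD3 (63.6 ± 1.25), FSD3 (35.1 ± 1.85) and FSD2 (25.7 ± 1.49 CPM per kilobase), all of which it lay below in Col-0.

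The share of each gene in the summed level of the 7 superoxide dismutases is a description with no test, since it contains CSD2. The sum was 1585, 1546 and 1730 CPM per kilobase in Col-0 and 2175, 2205 and 2176 CPM per kilobase in myc2, so it was higher in every myc2 library. CSD1 and CSD2 together held 47.0%, 47.1% and 47.6% of it in Col-0 and 74.5%, 73.7% and 73.9% in myc2. The share of FSD1 was 32.5%, 33.1% and 34.5% in Col-0 and 13.1%, 13.5% and 13.4% in myc2. FSD1 was the most abundant superoxide dismutase transcript per length in all 3 Col-0 libraries and the third in all 3 myc2 libraries.

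Col-0 replicate 3, which had the highest levels of both CSD1 and FSD1 among the wild-type libraries, did not stand apart in their ratio. The ratio of CSD1 to FSD1 per length was 0.641, 0.629 and 0.625 in Col-0 and 2.27, 2.18 and 2.30 in myc2. The ratio of CCS to CSD1 per length rose less, from 0.098, 0.084 and 0.082 in Col-0 to 0.150, 0.163 and 0.147 in myc2, and its genotypes did not overlap either. Between CSD2 and CSD1 the ratio was 1.24 ± 0.03 in Col-0 and 1.47 ± 0.06 in myc2.

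**Figure D4:**
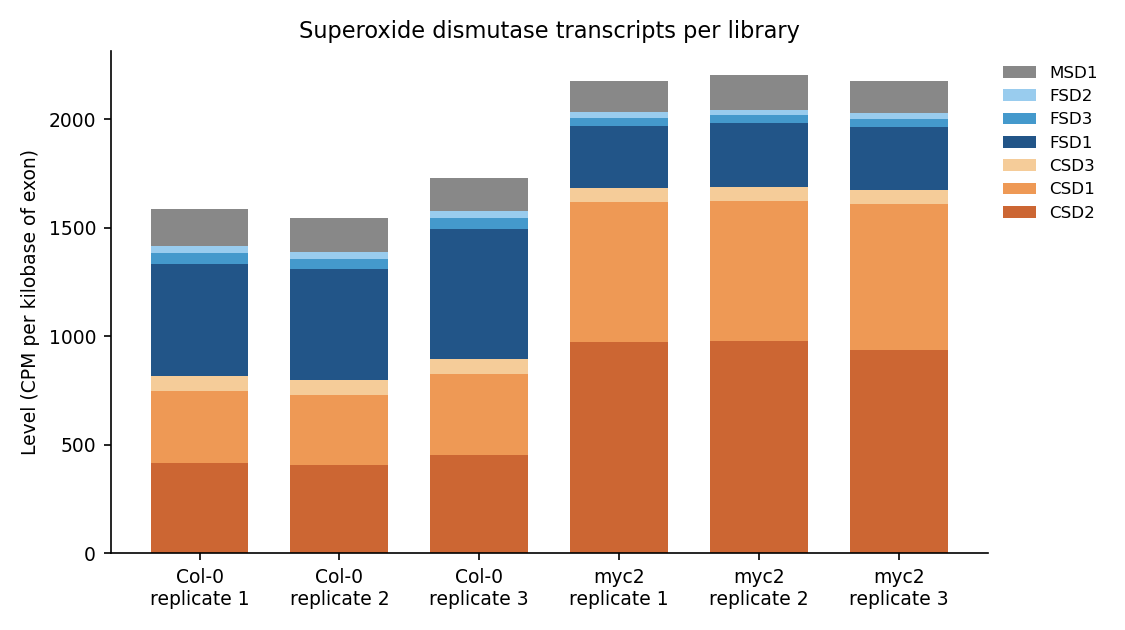
Level of the 7 superoxide dismutase genes in each library, stacked, in CPM per kilobase of exon; orange shades are the CSD genes, blue shades the FSD genes and grey is MSD1. The stacks reach 1546 to 1730 in Col-0 and 2175 to 2205 in myc2, with FSD1 (dark blue) at 513 to 597 in Col-0 and 285 to 298 in myc2.

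The proteins of each family are related but their transcripts are not near copies. CSD1 (152 residues) and CSD2 (216 residues) were identical at 67.1% of 152 aligned residues, and FSD1 and FSD2 at 66.5% of 212. The longest run of bases shared by 2 transcripts of these genes was 17 between CSD1 and CSD2 and 26 between FSD1 and FSD2.

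The microRNA genes of the copper response gave few reads in these poly(A) libraries, where only the primary transcript can be counted. MIR398C had 16, 13 and 23 counts in Col-0 and 5, 9 and 9 counts in myc2, and was the only one of 7 with enough reads to be tested. It had enough reads only through its Col-0 libraries, where it was higher, so its call is not independent of that selection. Its highest myc2 library was below its lowest Col-0 library, and it fell by 1.28 ± 0.35 on the log2 scale (SE, edgeR adjusted p = 0.0133). The call did not hold with DESeq2 (adjusted p = 0.0757) or without myc2 replicate 1 (edgeR adjusted p = 0.06), and was kept in the other 14 of 16 alternatives. With no filter beyond 1 read the edgeR adjusted p was 0.0173. MIR398A and MIR397A had at most 3 counts in any library, and MIR398B, MIR397B, MIR408 and MIR857 had 0 reads in all 6. MIR398B, MIR408 and MIR397A each lie wholly within a gene on the opposite strand (AT5G14550, AT2G47020 and ENT6), and reads of such a pair cannot be told apart.

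Of 9 other genes with known sites for the copper microRNAs, 7 were tested, of which LAC3 was higher, LAC4 was lower and 5 did not pass, with a median log2 fold change of -0.02. Over all genes 17.6% were called higher and 18.7% lower, and 1 of 7 in each direction is near those shares. Without Col-0 replicate 3, 2 of the 7 were called higher, where 21.3% of all genes were. COX5B-1, whose miR398 site had the lowest cost of the 4 printed when a bulge was allowed, but cost more than that of CSD1 and as much as that of CCS without one, was at 102, 96.2 and 114 CPM in Col-0 and 107, 97.6 and 103 CPM in myc2. Its genotypes overlapped, and the log2 fold change was -0.02, with a 95% interval from -0.18 to 0.14 (edgeR adjusted p = 0.856). LAC3, a laccase gene, had only 12, 14 and 10 counts in Col-0 and 44, 41 and 45 in myc2 (log2 fold change 1.71 ± 0.27, SE, edgeR adjusted p = 0.000498). Its Col-0 libraries alone did not have enough reads for the test, because of replicate 3. With no filter beyond 1 read the edgeR adjusted p was 0.000134. LAC4, a laccase of lignin formation, was at 23.6 ± 4.38 CPM in Col-0 and 12.4 ± 0.74 CPM in myc2 (log2 fold change -0.93 ± 0.12, SE, edgeR adjusted p = 0.000134), and ARPN, the plantacyanin gene, was at 5.64 to 8.57 CPM in Col-0 and 6.17 to 7.40 CPM in myc2 and did not pass.

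Of 7 listed genes known to rise under low copper, 4 were tested. The list is not complete. It leaves out COPT2, described above, and the copper importer gene COPT1, described below and called higher (log2 fold change 0.39). Of the 4 tested, none was called higher, 2 were lower and 2 did not pass, with a median log2 fold change of -0.20. Over all genes 17.6% were called higher and 18.7% lower. YSL2, a metal-nicotianamine transporter, was at 33.5, 28.9 and 34.3 CPM in Col-0 and at 12.3, 13.7 and 12.7 CPM in myc2, without overlap. It fell by 1.32 ± 0.09 on the log2 scale (SE, edgeR adjusted p = 6.21e-07). The copper chaperone CCH was at 286, 283 and 237 CPM in Col-0 and 182, 170 and 178 CPM in myc2 and fell by 0.61 ± 0.08 (SE, edgeR adjusted p = 7.21e-05), although Col-0 replicate 3 was also 0.26 below the other Col-0 libraries (edgeR adjusted p = 0.00412). COPT6, a copper importer of leaves, was at 22.4 ± 0.71 CPM in Col-0 and 25.8 ± 1.36 CPM in myc2 (edgeR adjusted p = 0.0676). COPT6 was called higher in 4 of 17 alternatives, with library totals only (edgeR adjusted p = 0.0119), under the filter of 5 CPM (0.0498), without Col-0 replicate 3 (0.022) and against Col-0 replicates 1 and 2 as a group of their own (0.0224). FRO4, a metal reductase gene, had 5 to 18 counts a library and did not pass (edgeR adjusted p = 0.512), and ZIP2, FRO5 and CITF1 had at most 6 counts in any library and were not tested.

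Of 17 genes of copper transport and delivery, 16 were tested, 4 were higher, 2 lower and 10 did not pass, with a median log2 fold change of -0.05. Beside 17.6% of all genes called higher and 18.7% called lower, these counts do not set the list apart. The higher ones were the copper importer gene COPT1 (0.39 ± 0.09, SE, edgeR adjusted p = 0.00469), the thylakoid copper pump gene PAA2 (0.24 ± 0.07, SE, edgeR adjusted p = 0.0226) and the transporters YSL1 (0.64 ± 0.08, SE, edgeR adjusted p = 7.79e-05) and YSL3 (0.47 ± 0.10, SE, edgeR adjusted p = 0.00288), as log2 fold changes. PAA1, the pump that brings copper into the chloroplast stroma where CSD2 resides, was at 130, 129 and 130 CPM in Col-0 and 98.9, 105 and 101 CPM in myc2. It fell by 0.35 ± 0.06 on the log2 scale (SE, edgeR adjusted p = 0.000609). The call of PAA2 was kept in 12 of 17 alternatives. It was lost against Col-0 replicate 3 (log2 fold change 0.11, edgeR adjusted p = 0.16), without Col-0 replicate 2 (0.098) and without each of myc2 replicates 1, 2 and 3 (0.101, 0.066 and 0.0651). COX17, a copper chaperone of mitochondria, was called lower (log2 fold change -0.33, edgeR adjusted p = 0.0485) but kept that call in only 3 of 17 alternatives, and in neither comparison with a single Col-0 run. HMA1, a chloroplast envelope pump, and ATX1, a cytosolic copper chaperone, did not pass at 87.0 ± 2.61 and 66.2 ± 6.91 CPM in myc2. Without Col-0 replicate 3, whose level was 42.5 CPM beside 77.7 and 78.6 in the others, ATX1 was lower in myc2 by the test (log2 fold change -0.24, edgeR adjusted p = 0.00781). Against Col-0 replicate 3 it was higher in myc2 (log2 fold change 0.64, edgeR adjusted p = 1.18e-05), so its direction turned with the run.

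Among 9 other copper proteins, 3 were higher in myc2, none was lower and 6 did not pass, beside 17.6% of all genes called higher and 18.7% called lower. Plastocyanin, the copper protein of photosynthetic electron transport, did not pass for either gene, with PETE2 at 2109 ± 204 CPM in Col-0 and 1942 ± 47.9 CPM in myc2 and PETE1 at 94.2 ± 7.64 and 96.3 ± 2.55 CPM. The ascorbate oxidase genes AT5G21100 (log2 fold change 0.34) and AT5G21105 (0.52) and the ethylene receptor ERS1 (0.57), which binds copper, were higher, with edgeR adjusted p of 0.00252, 0.000595 and 0.000105. None of the 9 was lower at an unadjusted p under 0.05 or with DESeq2 or limma-voom either. Against Col-0 replicate 3, however, PETE2 was lower in myc2 (log2 fold change -0.27, edgeR adjusted p = 3.28e-05), and against Col-0 replicates 1 and 2 it was not called (log2 fold change -0.04, edgeR adjusted p = 0.441).

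The plastid RNA polymerase-associated proteins are found with FSD2 and FSD3 in the nucleoid. None of their 10 genes passed by edgeR, DESeq2 or limma-voom, 1 had an unadjusted p under 0.05 by edgeR, and their log2 fold changes ranged from -0.15 to 0.17. However, 5 of these 10 genes were called between the wild-type runs, all lower in replicate 3, where 15.6% of all genes were called in either direction, among them PTAC12, which was at 117, 122 and 76.2 CPM in Col-0 and at 114, 106 and 114 CPM in myc2. Without Col-0 replicate 3, 3 of the 10 were called lower in myc2 and none higher, where 22.6% and 21.3% of all genes were. Against Col-0 replicate 3, 4 of the 10 were called higher, where 23.1% of all genes were, and 2 lower, where 22% were. The 4 higher ones, named for this comparison after their values were seen, were PTAC7 (log2 fold change 0.85), PTAC12 (0.55), PDE312 (0.53) and PTAC6 (0.36), so that the list gave opposite calls with the run. PTAC14 was not called between the runs and was at 107 ± 4.25 and 97.0 ± 1.36 CPM (edgeR adjusted p = 0.0731), but against Col-0 replicate 3 it was lower in myc2 (edgeR adjusted p = 0.00795). The 4 long SPL genes, relatives of SPL7, did not pass by edgeR, DESeq2 or limma-voom, and 1, SPL16, had an unadjusted p under 0.05 by edgeR. SPL16 was called higher against Col-0 replicate 3 (edgeR adjusted p = 0.0227) and not against replicates 1 and 2 (0.106), while SPL14 was called higher against replicates 1 and 2 (0.0439) and not against replicate 3 (0.223). SPL1 was at 185 ± 7.06 and 180 ± 9.32 CPM, SPL12 at 68.7 ± 5.14 and 67.5 ± 3.53 CPM, SPL14 at 59.3 ± 3.16 and 65.4 ± 1.79 CPM and SPL16 at 11.1 ± 0.81 and 13.3 ± 0.80 CPM, in Col-0 and myc2.

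**Figure D5:**
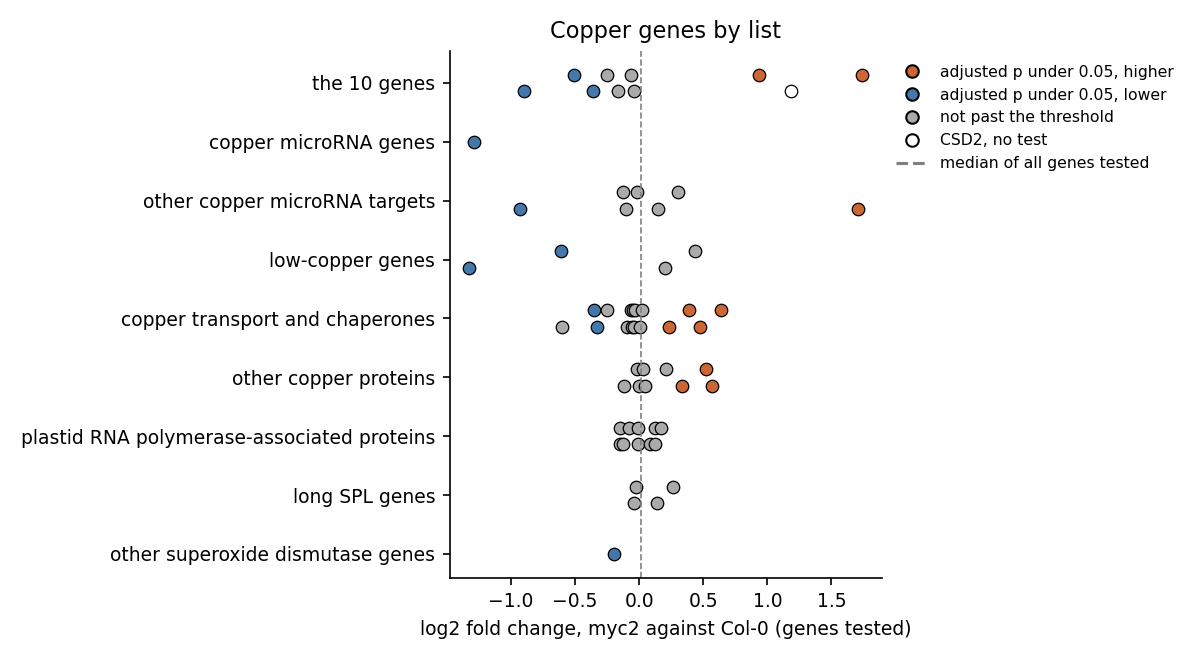
log2 fold change of myc2 against Col-0 for every gene tested in the group and in 8 lists of related genes; each point is 1 gene, orange and blue mark genes called higher and lower, grey marks genes that did not pass, and the dashed line is the median of all genes tested (0.01). The group spans -0.89 to 1.74, while the plastid polymerase list stays between -0.15 and 0.17.

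The genes most like CSD2 over the 6 libraries were listed by Pearson correlation of log2 CPM among 1902 genes with a mean of at least 100 CPM. The first 5 were AT3G21690 (r = 0.998), NIK3 (r = 0.998), the peroxidase PRXR1 (r = 0.998), the cyclic nucleotide-gated channel gene CNGC12 (r = 0.998) and the ethylene response factor gene EBP (r = 0.997). CSD1 had rank 10 among the 1902 (r = 0.996). The 6 points share the split by genotype and by run, so any gene that differs sharply between the genotypes scores high, and the values are a description.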

How the data were processed

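RNA-seq libraries of 3 Col-0 and 3 myc2 shoot samples were made with a TruSeq kit from poly(A) RNA. Per the labels, the tools of the authors were fastp, HISAT2, SAMtools and StringTie and the genome was TAIR10, and the sources used here give no version, read counter, strand setting or annotation release. The authors deposited raw read counts for each gene. Their own comparison of the genotypes (fold changes and p-values), also deposited, was not used.

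Genes passing filterByExpr were scaled by TMM. The test was the quasi-likelihood one of edgeR 4.0.16 in R 4.3.3 on a model of genotype alone, with Benjamini-Hochberg adjustment over 18961 genes and a threshold of 0.05. The biological coefficient of variation was 8.44%. The calculation was tested on simulated data. DESeq2 1.42.0, limma-voom (limma 3.58.1), other scalings and filters, a replicate block, left-out libraries, thinning and the Col-0 runs as separate groups were alternatives. Replicates differed by more than sampling noise (chi-square per degree of freedom 2.51 to 20.9). Coordinates, lengths and sequences came from RefSeq TAIR10.1, matched by identifier for 28009 of 28775 genes (97.3%). Per-length levels are CPM divided by the union of exons. Floors of 3 counts cover counting error only.

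The members, the gene lists and the rule for naming genes were chosen with earlier results of these data known. The rule named the 10 genes, MYC2, of each list up to 6 called members by adjusted p and the 2 most abundant that did not pass, every gene tested in lists of 5 or fewer, and the 5 genes most like CSD2.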

Additional observations from a re-analysis of the deposited data

How the results depend on the processing

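CSD1, CCS, FSD1, FSD2 and FSD3 kept their direction and their call in each of 17 alternatives to the scaling, test, filter, depth and libraries used. Their log2 fold changes ranged from 0.81 to 1.03 (CSD1), 1.67 to 1.83 (CCS), -1.03 to -0.80 (FSD1), -0.39 to -0.27 (FSD2) and -0.56 to -0.41 (FSD3). CSD2 ranged from 1.10 (against Col-0 replicate 3) to 1.27 (library totals only). Over all genes, 5032 to 8558 were called, beside 6889 in the text. With library totals only, 64.9% of calls were higher, against 48.5% with TMM, and the median of all genes rose from 0.01 to 0.10. Without composition scaling MSD1 (0.0225), SPL7 (0.0496), COX5B-1 (0.0714), HMA1 (0.0308), SPL1 (0.0490) and SPL12 (0.0646) changed sign, none past the threshold.

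Single libraries turned the sign of genes near 0. Leaving out 1 library, SPL7 ranged from -0.1420 to 0.0204, COX5B-1 from -0.0792 to 0.0510, SPL12 from -0.0662 to 0.0373, ARPN from -0.2827 to 0.0079, PETE1 from -0.0242 to 0.0950, PTAC12 from -0.0980 to 0.2031 and ATX1 from -0.2379 to 0.1385. Against Col-0 replicates 1 and 2 only, COX5B-1 was 0.0508, ARPN 0.0080, ATX1 -0.2379 and PTAC12 -0.0982, and against replicate 3 only, PETE1 was -0.0851, SPL12 0.0580, PTAC12 0.5465 and ATX1 0.6393. ATX1 was -0.0013 with RLE scaling and -0.0048 with DESeq2. COPT2 was not tested under the filter of 5 CPM.

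With coding length in place of exon length, CSD1 and CSD2 together held 42.5% of the superoxide dismutase level in Col-0 and 71.1% in myc2, and FSD1 held 41.8% and 18.0%. In Col-0 the levels of CSD1 (613.5 to 709.1) and CSD2 (656.1 to 728.5 CPM per kilobase of coding sequence) then overlapped. Their ratio, CSD2 to CSD1, was 1.055 ± 0.024 (SD), and CCS (44.4 ± 3.93) lay further below FSD2 (55.3 ± 0.11). Without a bulge, the miR398b-3p site cost 6.5 in CSD2, 5.5 in CCS and 5.5 in COX5B-1; with a G:U cost of 1 these were 8.0, 6.0 and 6.0.

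The titles share replicate numbers, but same-numbered libraries did not deviate together (correlations -0.02, 0.01 and 0.02). With the replicate number as a block, 6639 genes were called, and 2 of the 9 genes were higher and 3 lower, as without it.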
